A study of Mus musculus with 21 samples.

Results

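The 10 MHC class II genes on the array were followed in rhabdomyosarcoma (RMS) tumors of NPE and PE mice. They are H2-Aa, H2-Ab1, H2-Eb1 and H2-Eb2, which encode or resemble the chains of the classical molecules, H2-DMa, H2-DMb1, H2-DMb2, H2-Oa and H2-Ob, which encode the chains of the peptide-loading molecules, and Ciita. They were taken by name, as 10 of the 19505 genes measured, and each has a single probe set. The family was selected on the measured log2 difference of H2-Eb1 between the genotypes, so that difference is described without a test. The other members were compared by a fit across all probe sets.

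NPE mice were Neu1+/−, Ptch1+/− and carried the ETV7 transgene (ETV7 TG+/−), and PE mice shared the Ptch1 and ETV7 genotype with an intact Neu1. Neu1 encodes a lysosomal sialidase, and Ptch1 encodes a receptor that restrains hedgehog signaling. Each of the 14 NPE and 7 PE tumors came from trunk or limb, and its total RNA was hybridized to 1 Clariom S Mouse array. Values are log2 signals after robust multiarray averaging (RMA), so a difference of 1 is a doubling of signal. Per the study's methods, male and female mice of a wide range of ages were used, and tumor-bearing mice of the groups were not necessarily littermates. The Neu1 allele came from FVB/NJ mice and was crossed into a mixed background of other strains. On the mouse reference Neu1 lies on the same chromosome as 9 of these genes, so Neu1 genotype and the strain origin of linked alleles cannot be told apart here.

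Class II molecules are pairs of an alpha and a beta chain that show peptides from engulfed material to CD4+ T cells. H2-Aa and H2-Ab1 encode the chains of I-A, and H2-Eb1 encodes the beta chain of I-E. H2-DM exchanges peptides in the endosome, H2-O restrains H2-DM, and Ciita, the coactivator of the class II genes, acts through factors bound to the X and Y boxes of their promoters. The genes are active in dendritic cells, macrophages and B cells, and interferon-gamma can turn them on in other cells. In bulk tumors, fewer cells of a type and less RNA per cell cannot be told apart.

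The promoters of the H2-Eb1 gene, of H2-Aa, with which its signal moved from tumor to tumor, and of H2-Eb2, its neighbor, are shown because they carry an X and Y box arrangement found in several of these genes. The 250 bases before the annotated start are given from RefSeq (GRCm38.p6), 5′ to 3′ on the gene's strand. Capitals mark the GCAAC, letters within the X box, that stands at the searched distance before an ATTGG, the core of the Y box, and that ATTGG. Other copies of these letters were left in lower case.
H2-Eb1 (chr17:34305617-34305866, plus strand): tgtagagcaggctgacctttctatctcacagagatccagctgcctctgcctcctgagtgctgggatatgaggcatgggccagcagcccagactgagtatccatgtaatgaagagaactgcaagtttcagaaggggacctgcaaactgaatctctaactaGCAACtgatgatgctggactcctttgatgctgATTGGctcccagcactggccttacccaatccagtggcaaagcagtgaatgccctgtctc
H2-Aa (chr17:34287824-34288073, minus strand): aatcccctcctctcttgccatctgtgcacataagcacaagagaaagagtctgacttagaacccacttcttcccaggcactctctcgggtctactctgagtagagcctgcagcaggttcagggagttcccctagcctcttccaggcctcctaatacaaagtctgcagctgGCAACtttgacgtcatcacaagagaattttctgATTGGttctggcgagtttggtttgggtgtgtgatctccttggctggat
H2-Eb2 (chr17:34325425-34325674, plus strand): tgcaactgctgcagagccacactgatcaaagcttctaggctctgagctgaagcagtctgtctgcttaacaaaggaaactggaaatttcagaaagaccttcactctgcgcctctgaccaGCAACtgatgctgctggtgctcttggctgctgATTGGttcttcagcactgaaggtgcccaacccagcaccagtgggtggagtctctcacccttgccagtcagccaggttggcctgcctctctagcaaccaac

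The table of promoters held 8 of the 10 genes, without H2-Ab1 and Ciita. GCAAC followed after 15 to 30 bases by ATTGG, on the gene's strand, was found in the promoters of 5 of these genes, namely H2-Eb1, H2-Aa, H2-Eb2, H2-Oa and H2-Ob. It was found in 0.368% of the 32851 promoters in the table. The spacing between both motifs was 27 bases in H2-Eb1 and H2-Eb2, 28 bases in H2-Aa and H2-Oa, and 25 bases in H2-Ob. ATTGG, found in 19.7% of all promoters on this strand, was present without that GCAAC in H2-DMb1, H2-DMb2 and 1 of the pair of H2-DMa entries. It stood 61, 90 and 198 bases before the start in these. Only exact letters were searched, so an X box with other letters would be missed, and these promoters are not read as lacking the arrangement.

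The array checks were as follows. The median signal per array was 5.32 to 5.41 over the NPE arrays, against 5.33 to 5.37 over the PE arrays, and the number of arrays limits the precision. Neu1 was 6.36 in NPE and 6.62 in PE tumors on average, with a log2 difference of -0.27 (standard error 0.09). In limma its unadjusted p was 0.00726 and its adjusted p 0.513, and the genotypes overlapped. The paper reports low Neu1 RNA and protein in NPE tumors, by qRT-PCR and staining. The muscle marker mean was lowest in NPE tumor 3, at 6.21, against 8.71 to 9.05 in PE tumors. The tumors of 3 pairs resembled each other more than the rest, with a correlation of their deviations of 0.51 for NPE tumors 7 and 8, 0.74 for NPE tumors 11 and 12 and 0.52 for PE tumors 6 and 7.

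H2-Eb1 was the class II gene with the separated genotypes. Its log2 signal ran from 6.77 in NPE tumor 12 over a median of 7.78 to 8.71 in NPE tumor 2, with a mean of 7.84 ± 0.55 (s.d., n = 14). In PE tumors it was 5.14, 4.66, 5.63, 5.98, 5.12, 4.24 and 4.93 in tumors 1 to 7, with a mean of 5.10 ± 0.58 (s.d., n = 7). Every NPE tumor was above every PE tumor, as was so for 0.0045% of all probe sets, and 0.79 separated the lowest NPE tumor from the highest PE tumor. The log2 difference was 2.74, a 6.67-fold difference of signal. The signal was above all 23 background probes of the array in 13 of 14 NPE tumors and in 0 of 7 PE tumors. It was above the median background probe in all 21 tumors, so the PE values lie within the range of the background probes and the size of the fold is uncertain at its low end.

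**Figure D1:**
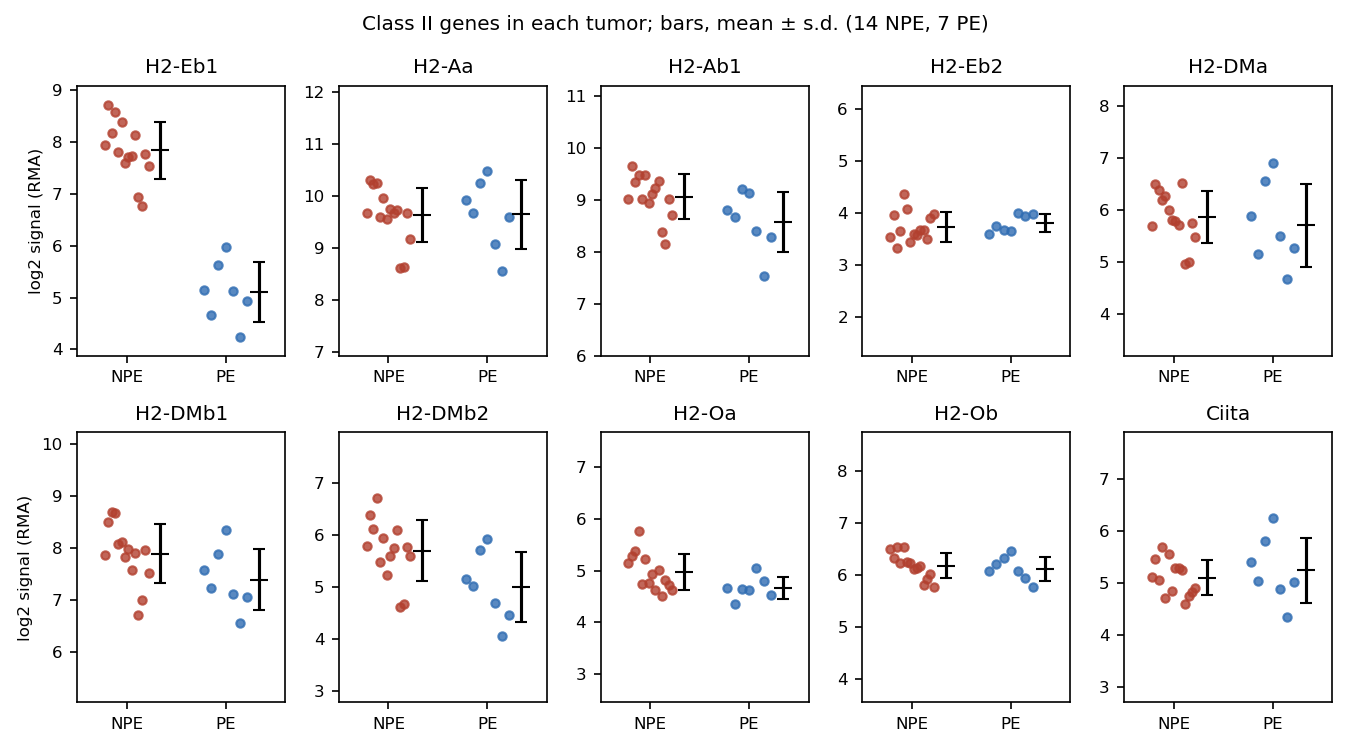
Each panel plots the log2 RMA signal (y axis) of 1 class II gene in the 14 NPE tumors (red, left) and the 7 PE tumors (blue, right), 1 point per tumor in order of tumor number. Black bars give mean ± s.d., and the panels share the length of the y axis but not its position. The genotypes separate in the H2-Eb1 panel alone, with 6.77 as the lowest NPE and 5.98 as the highest PE value.

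H2-Aa, the I-A alpha chain, had the same mean in both genotypes. Its signal ran from 8.62 in NPE tumor 11 over a median of 9.68 to 10.31 in NPE tumor 2, with a mean of 9.63 ± 0.52 (s.d., n = 14). In PE tumors 1 to 7 it was 9.92, 9.68, 10.25, 10.48, 9.08, 8.56 and 9.59, with a mean of 9.65 ± 0.66 (s.d., n = 7). The genotypes overlapped almost fully, and the log2 difference of -0.02 had a 95% interval of -0.53 to 0.49 (adjusted p = 0.99 in limma). The family was selected on the H2-Eb1 difference, so a smaller difference of H2-Aa is not read as a result.

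H2-Ab1, the I-A beta chain, had a higher mean in NPE tumors, but the difference did not pass the test. It ran from 8.15 over a median of 9.07 to 9.65 in NPE tumors, with a mean of 9.06 ± 0.43 (s.d., n = 14). The PE values in tumors 1 to 7 were 8.81, 8.68, 9.21, 9.14, 8.40, 7.54 and 8.28, with a mean of 8.58 ± 0.57 (s.d., n = 7). In 6 of 14 NPE tumors the signal was above every PE tumor. The log2 difference was 0.48 (standard error 0.21, unadjusted p = 0.0284, adjusted p = 0.54 in limma).

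Relative to H2-Aa in the same tumor, H2-Ab1 also differed between the genotypes. The difference H2-Ab1 minus H2-Aa was -0.57 ± 0.17 in NPE and -1.07 ± 0.22 in PE tumors (s.d., n = 14 and n = 7). It overlapped, since NPE tumor 3 had -0.88 and PE tumor 5 had -0.68. This measure was chosen after the values were seen and was not tested. Levels of different probe sets cannot be compared, so only its change from tumor to tumor is read here.

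H2-Eb2, which resembles H2-Eb1 and lies next to it on the reference, was dim. It ran from 3.33 to 4.37 across NPE tumors, against 3.60 to 4.01 across PE tumors, and was above all background probes in 0 of 21 tumors. The log2 difference was -0.07 (adjusted p = 0.913 in limma). Whether its transcripts differ could not be read at this signal.

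The chains of H2-DM overlapped between genotypes. H2-DMb2 had the largest difference of the 9 other members, with 5.70 ± 0.59 in NPE tumors, against 5.00 ± 0.67 in PE tumors (s.d.). Its log2 difference was 0.70 (standard error 0.26, unadjusted p = 0.014, adjusted p = 0.513 in limma). H2-DMb1, the other beta chain gene, averaged 7.89 ± 0.57 in NPE tumors and 7.39 ± 0.59 in PE tumors (log2 difference 0.50, adjusted p = 0.603 in limma). H2-DMa, the alpha chain, averaged 5.86 ± 0.49 in NPE tumors and 5.70 ± 0.80 in PE tumors (log2 difference 0.16, adjusted p = 0.911 in limma). H2-DMb1 and H2-DMb2 are close copies, so their probe signals may be shared in part. H2-DMa was above all background probes in 0 of 14 NPE and 1 of 7 PE tumors, and H2-DMb2 in 1 of 14 and 0 of 7. H2-DMb1 was so in 12 of 14 NPE and 6 of 7 PE tumors.

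H2-Oa and H2-Ob, the chains of H2-O, were above all background probes in 0 of 14 NPE tumors. In PE tumors H2-Oa was so in 0 and H2-Ob in 1 of 7. H2-Oa averaged 4.97 ± 0.35 in NPE and 4.67 ± 0.21 in PE tumors, with a log2 difference of 0.30 (unadjusted p = 0.0428, adjusted p = 0.579 in limma). H2-Ob averaged 6.18 ± 0.25 in NPE tumors and 6.12 ± 0.23 in PE tumors (log2 difference 0.06, adjusted p = 0.925 in limma).

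Ciita ran from 4.60 over a median of 5.09 to 5.68 in NPE tumors. In PE tumors 1 to 7 it was 5.40, 5.04, 5.80, 6.24, 4.88, 4.35 and 5.01. The means were 5.09 ± 0.34 in NPE and 5.25 ± 0.63 in PE tumors (s.d., n = 14 and n = 7), and the highest and the lowest of all 21 tumors were PE tumors 4 and 6. The log2 difference was -0.15, with a 95% interval of -0.55 to 0.25 (adjusted p = 0.879 in limma). Ciita was above all background probes in 0 of 14 NPE and 0 of 7 PE tumors, so its difference is read with this limit.

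Over the whole array, 2 of 22206 probe sets passed an adjusted p of 0.05, which is 0.00901%. Of these 1 was higher in NPE, which is 0.0045%. H2-Eb1 is left out of the counts that follow, since its difference chose the family. None of the other 9 members passed in limma, and 3 of them, H2-Ab1, H2-DMb2 and H2-Oa, had an unadjusted p under 0.05, all higher in NPE. Over all probe sets 4.05% were higher and 4.36% lower in NPE at that unadjusted level. A plain test with unequal variances per probe set, run as an alternative, also passed 0 of the 9 after adjustment. These 9 had a median log2 difference of 0.16, against 0 over all probe sets. Of the 9, 6 were higher and 3 lower in NPE, which is 66.7% higher, against 49.8% of all probe sets.

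**Figure D2:**
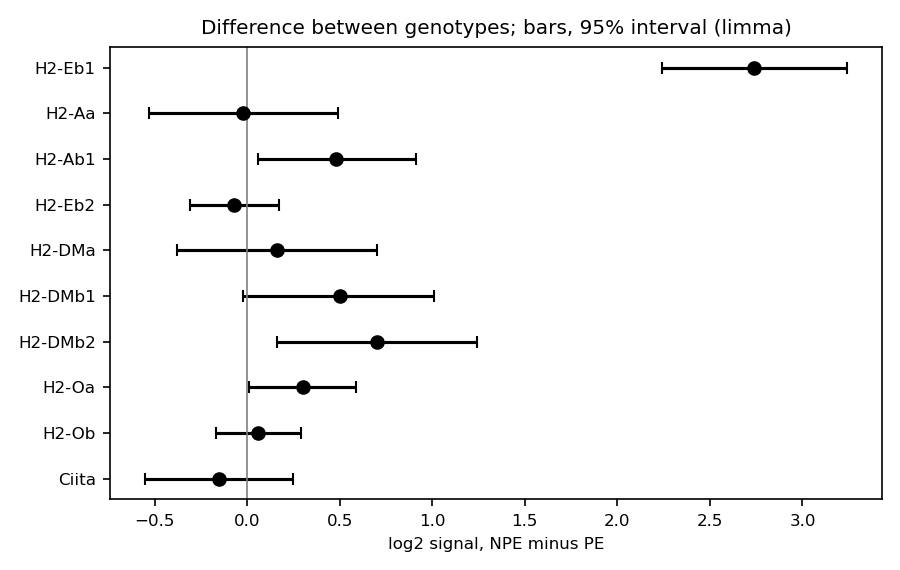
Points give the log2 difference, NPE minus PE, of each class II gene (x axis), and bars its 95% interval from limma over 14 NPE and 7 PE tumors. H2-Eb1 stands at 2.74, and the other 9 genes lie between -0.15 and 0.70. The difference of H2-Eb1 chose the family, so its bar is a description and is not read as a test.

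Within each genotype H2-Eb1 moved with H2-Aa, H2-Ab1, the H2-DM genes and Ciita from tumor to tumor, while its relation to H2-Eb2 in both genotypes and to H2-Oa and H2-Ob in PE tumors did not pass the test. The tumors with the lowest H2-Aa in NPE, tumors 11 and 12 at 8.62 and 8.64, also had the lowest H2-Eb1, at 6.94 and 6.77. The tumors with the highest H2-Aa in PE, tumors 4 and 3 at 10.48 and 10.25, also had the highest H2-Eb1 of their genotype, at 5.98 and 5.63. Yet NPE tumors 11 and 12 were above PE tumors 3 and 4 in H2-Eb1, although their H2-Aa was lower by more than 1 log2 unit. Tumors of the genotypes lay on separate lines for H2-Eb1, as the plot against H2-Aa, H2-Ab1 and H2-DMa shows.

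**Figure D3:**
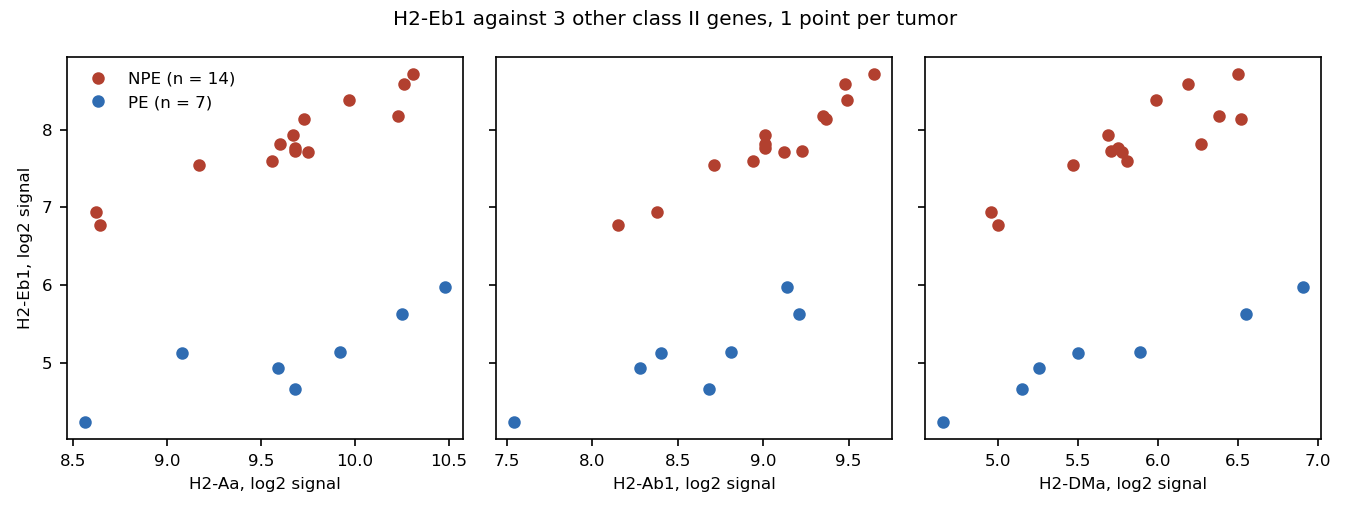
H2-Eb1 log2 signal (y axis) against that of H2-Aa, H2-Ab1 and H2-DMa (x axes), 1 point per tumor, NPE red and PE blue. Within each genotype the points rise together, with Pearson's r of 0.95, 0.96 and 0.87 in NPE and 0.86, 0.87 and 0.98 in PE tumors, and the genotypes form separate bands.

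The difference between H2-Eb1 and the mean of H2-Aa and H2-Ab1 in the same tumor put a number on this separation. It ran from -1.73 in NPE tumor 8 to -1.27 in NPE tumor 2, with a mean of -1.51 ± 0.15 (s.d., n = 14). In PE tumors 1 to 7 it was -4.22, -4.52, -4.10, -3.83, -3.62, -3.81 and -4.0, with a mean of -4.01 ± 0.30 (s.d., n = 7). The genotypes differed by 2.50, and the spread within a genotype was narrower than that of H2-Eb1 alone, 0.15 against 0.55 in NPE and 0.30 against 0.58 in PE tumors. Relative to H2-DMa the values were 1.98 ± 0.27 in NPE and -0.60 ± 0.26 in PE tumors. Both measures rest on the H2-Eb1 difference and were not tested.

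Each tumor title ends in a number that the labels do not explain, and these numbers form 3 ranges that divide the genotypes unequally. The range 1 to 10 holds 8 NPE tumors, 18 to 23 holds 1 NPE and 5 PE tumors, and 28 to 35 holds 5 NPE and 2 PE tumors. Within 18 to 23 the H2-Eb1 difference to the I-A genes was -1.41 in the NPE tumor and -4.06 ± 0.35 in PE tumors. Within 28 to 35 it was -1.57 ± 0.17 in NPE and -3.90 ± 0.14 in PE tumors. H2-Eb1 itself differed by 2.83 and 2.93 log2 units within these ranges.

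**Figure D4:**
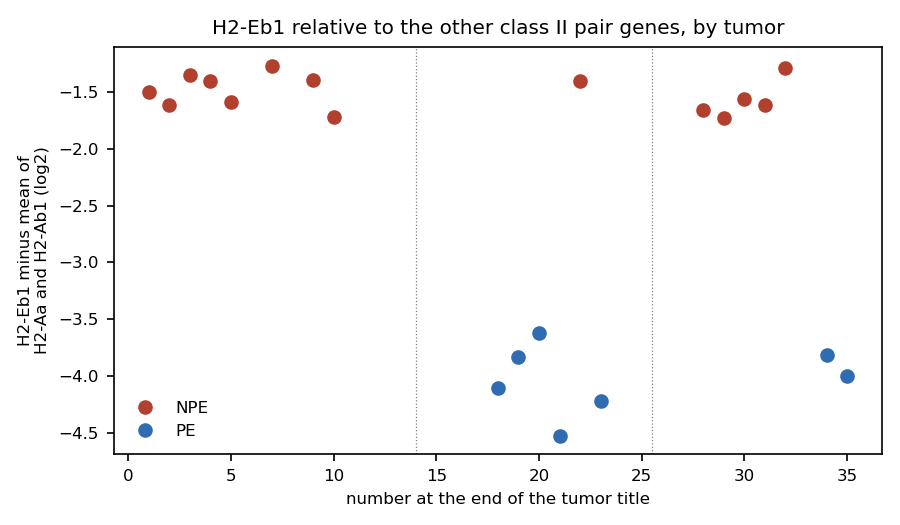
H2-Eb1 minus the mean of H2-Aa and H2-Ab1 (y axis, log2) for each tumor, against the number at the end of its title (x axis), NPE red and PE blue, with dotted lines between the 3 ranges. The NPE tumors sit between -1.73 and -1.27 and the PE tumors between -4.52 and -3.62 in every range they occur in.

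Correlations within a genotype do not use the difference between genotypes. H2-Eb1 was set against each of the 9 other members in both genotypes, 18 pairs in all, with Benjamini-Hochberg adjustment over them. In 14 of 18 pairs the adjusted permutation p was under 0.05, 8 in NPE and 6 in PE tumors, all with a positive r. The share of all measured genes that would pass in these tumors was not computed. The count is therefore not read as particular to class II genes. With H2-Ab1, Pearson's r was 0.96 (permutation p = 1e-05, the smallest that 100000 resamples give, adjusted 6e-05) and Spearman's rho 0.92 (permutation p = 1e-05, adjusted 9e-05) in the 14 NPE tumors. In the 7 PE tumors r was 0.87 (exact permutation p = 0.0119, adjusted 0.0179) and rho 0.86 (exact permutation p = 0.0238, adjusted 0.0306). Without the 2 tumors farthest from the median of H2-Ab1, r was 0.92 in NPE and 0.71 in PE tumors.

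H2-DMa gave the closest relation in PE tumors, with r of 0.98 (exact permutation p = 0.000198, the smallest 7 tumors allow, adjusted 0.000595) and rho of 1.0, against r of 0.87 (permutation p = 0.00013, adjusted 0.000468) and rho of 0.79 in NPE tumors. Ciita had an r of 0.81 in NPE (permutation p = 0.00039, adjusted 0.001) and 0.95 in PE tumors (exact permutation p = 0.00238, adjusted 0.00464). Its rho was 0.70 in NPE and 0.86 in PE tumors. It followed H2-Eb1 within each genotype, while its mean was not higher in NPE tumors. Yet H2-DMa and Ciita were above all background probes in 1 and 0 of 7 PE tumors, and each in 0 of 14 NPE tumors. H2-Eb1 itself was so in 0 of 7 PE tumors, so every PE correlation carries this limit. The other members with an adjusted p under 0.05 were H2-Aa, H2-DMb1 and H2-DMb2 in both genotypes, with r from 0.86 to 0.95. In NPE tumors H2-Oa (0.78) and H2-Ob (0.61) also passed. Of these, H2-DMb2 was above all background probes in 1 of 14 NPE and 0 of 7 PE tumors, and H2-Oa and H2-Ob in 0 of 14 NPE tumors. Those that missed an adjusted p under 0.05 were H2-Eb2 in both genotypes (0.23 in NPE and -0.57 in PE tumors) and H2-Oa (0.01) and H2-Ob (0.71) in PE tumors. Among the 8 NPE tumors of title range 1 to 10 the r values with these members ran from 0.45 for H2-Ob to 0.92 for H2-Ab1, leaving out H2-Eb2 at 0.01. The other ranges hold too few tumors of a genotype. Without the 2 farthest tumors 8 of 18 pairs passed, 7 in NPE and 1 in PE tumors, where 5 tumors remain. Without PE tumor 3, 4 or 6 alone 3 pairs passed in PE tumors, those with H2-DMa, H2-DMb1 and Ciita, so the PE calls for H2-Aa, H2-Ab1 and H2-DMb2 depended on single tumors.

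Some leukocyte and interferon markers moved with H2-Ab1 and H2-Eb1 inside a genotype. Of 28 pairs of H2-Ab1 or H2-Eb1 with 7 markers in both genotypes, 13 had an adjusted permutation p under 0.05, all with a positive r. Here too the share of all measured genes was not computed, so the count is not read as particular to the markers. H2-Eb1 had an r of 0.84 in NPE (permutation p = 0.00026, adjusted 0.00364) and 0.97 in PE tumors (exact permutation p = 0.000992, adjusted 0.00481) with Ptprc, which encodes the leukocyte antigen CD45. With Cd3e, a chain of the T cell receptor complex, r was 0.85 in NPE (permutation p = 0.00013, adjusted 0.00364) and 0.88 in PE tumors (exact permutation p = 0.00972, adjusted 0.0247). Cd3e, like H2-Eb1, was above all background probes in no PE tumor, so its PE values are read with this limit. With Irf1, an interferon-induced transcription factor, it was 0.73 in NPE (permutation p = 0.00263, adjusted 0.0092) and 0.87 in PE tumors (exact permutation p = 0.0121, adjusted 0.0282).

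Csf1r, the receptor of macrophage growth factor, had an r of 0.81 with H2-Eb1 in NPE (permutation p = 0.00072, adjusted 0.00481) and 0.25 in PE tumors (exact permutation p = 0.549, adjusted 0.629). Itgax, Flt3 and Cd79a, markers of dendritic and B cells, had no adjusted p under 0.05, and they were above all background probes in 0 of 21 tumors. Without the 2 tumors farthest from the median of the marker 0 of 28 pairs passed, with 8 at an unadjusted permutation p under 0.05. The r of H2-Eb1 with Ptprc was then 0.74 in NPE and 0.92 in PE tumors, and with Cd3e 0.78 in NPE and 0.95 in PE tumors. Spearman's rho passed in 9 of the 28 pairs, and for Ptprc it was 0.66 in NPE (permutation p = 0.0131, adjusted 0.0458) and 0.96 in PE tumors (exact permutation p = 0.00278, adjusted 0.0389). Within title range 1 to 10 the r of H2-Eb1 in NPE tumors was 0.78 with Ptprc, 0.73 with Cd3e and 0.62 with Csf1r.

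**Figure D5:**
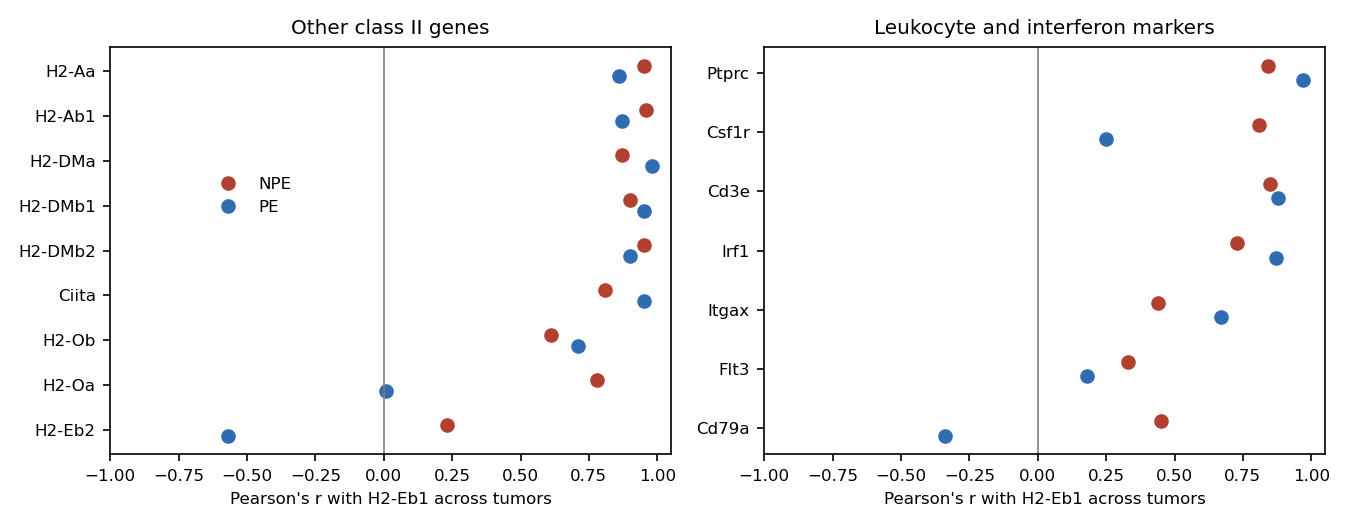
Pearson's r across tumors (x axis) of H2-Eb1 with each other class II gene (left) and with 7 marker genes (right), NPE red and PE blue, over 14 NPE and 7 PE tumors. Most class II genes lie above 0.6 in both genotypes, with H2-Eb2 at 0.23 in NPE and -0.57 in PE tumors and H2-Oa at 0.01 in PE tumors as the exceptions.

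The markers were also compared between the genotypes. H2-Eb1 was chosen for its difference, so smaller differences of the markers were fixed in advance and are not read as a result. Over all probe sets 49.8% were higher in NPE. Ptprc averaged 7.46 ± 0.57 in NPE and 7.22 ± 0.37 in PE tumors (log2 difference 0.23, adjusted p = 0.819 in limma). The 4 pan-leukocyte markers averaged 6.47 to 8.20 over NPE tumors and 6.95 to 7.94 over PE tumors, and 1 of 4 was higher in NPE. The 9 macrophage markers averaged 6.15 to 7.86 over NPE tumors and 6.57 to 7.19 over PE tumors, and of these 4 were higher in NPE. The macrophage marker with the smallest p was Cd163, a scavenger receptor, with a log2 difference of 0.64 (adjusted p = 0.524 in limma), although it was above all background probes in no tumor. Of 7 measured B cell markers 5 were higher and 2 lower in NPE, and of 10 dendritic cell markers 7 were higher and 3 lower. The B cell marker with the smallest p was Cd79a, with a log2 difference of 0.33 (unadjusted p = 0.0234, adjusted p = 0.536 in limma). All 7 measured B cell markers and 9 of 10 dendritic cell markers were not above all background probes in any tumor. Of 8 measured T and NK cell markers 5 were higher in NPE tumors, with Cd3e at a log2 difference of 0.63 (adjusted p = 0.634 in limma). Of 8 muscle markers 1 was higher and 7 lower, with a median log2 difference of -0.53, and 0 passed; their part in the H2-Eb1 difference was not tested. With Ptprc as a covariate the H2-Eb1 difference was 2.52, and with Csf1r it was 2.65.

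Of 15 measured interferon response genes 13 were higher and 2 lower in NPE tumors, with a median log2 difference of 0.12, and 0 passed an adjusted p of 0.05. Ifit1, an interferon-induced antiviral gene, had the smallest p, with a log2 difference of 0.67 (unadjusted p = 0.00977, adjusted p = 0.513 in limma). However, Ifit1 was above all background probes in no tumor. Of the 12 measured transcription regulators of class II genes, Rfx5, a subunit of the factor at the X box, had a log2 difference of -0.27 (adjusted p = 0.673 in limma), and 0 passed in either direction. Of 8 measured loading and processing genes 0 passed, and the smallest p was that of Lgmn, an endosomal protease, with a log2 difference of -0.28 (adjusted p = 0.598 in limma). The Y-linked gene mean ran from 2.35 to 7.44 over NPE tumors and from 2.52 to 7.16 over PE tumors. Its average was 4.64 in NPE and 6.25 in PE tumors. All 3 measured Y-linked genes were lower in NPE tumors, with a median log2 difference of -1.74, and 0 passed in limma. With the Y-linked mean as a covariate the H2-Eb1 difference was 2.60.

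No measured neighbor of H2-Eb1 on the reference passed the test, which 0.00901% of all probe sets passed, so this is not read as a lack of change. RefSeq (GRCm38.p6) places H2-Ab1 and H2-Aa on one side of it, H2-Eb2 on the other, and Neu1 further along. It lists H2-Ea, the gene of the I-E alpha chain, as a transcribed pseudogene, and no tested probe set was named for it. Of 59 genes annotated from H2-Oa to Neu1, 44 were measured. Of the 43 other than H2-Eb1, 0 passed an adjusted p of 0.05 in limma, and 8 had an unadjusted p under 0.05, 5 higher and 3 lower in NPE tumors, against 4.05% higher and 4.36% lower over all probe sets. Of the 5 higher, 3 are the members H2-Ab1, H2-DMb2 and H2-Oa counted above, and Neu1 is among the 3 lower. The smallest p was that of Prrt1, a transmembrane protein gene, with a log2 difference of 0.58 (adjusted p = 0.256 in limma) and overlapping genotypes.

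The genes outside the family most like H2-Eb1 over the 14 NPE tumors were Selplg (r = 0.94), Dnase1l3 (0.93), Samd9l (0.93), Psmb9 (0.92) and Gbp7 (0.92). Over the 7 PE tumors their r with H2-Eb1 was 0.76, 0.92, 0.95, 0.93 and 0.92. Those most like H2-Ab1 were Gbp7 (r = 0.93), Dnase1l3 (0.91), Tmem100 (0.90), Abca9 (0.90) and Gvin1 (0.90) in NPE tumors, with 0.80, 0.83, -0.42, 0.07 and 0.75 in PE tumors. The genes were picked as the highest of 19505 in the same tumors, so the values are a description.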

How the data were processed

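Total RNA of 14 NPE and 7 PE tumors had been hybridized to Clariom S Mouse arrays, 1 per tumor. The authors deposited log2 signals, made by RMA (background correction, quantile normalization and summary of probes), with Affymetrix Expression Console 1.1 named in the submitters' processing notes. Of 28846 probe sets, 94 controls and 6546 with names beginning with MG- were left out, and 22206 were tested. Gene names came from the platform annotation in GEO (1 symbol for 19572 probe sets, none for 2634), and a gene with several probe sets was read from the one of highest mean. Cd74 and Cd68 were named by no tested probe set and not analysed here. Csf1r was used in place of Cd68 and Irf1 was added as a marker, choices made after the data were seen.

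NPE was compared with PE by limma 3.58.1 (lmFit, eBayes, R 4.3.3), 2-sided, with Benjamini-Hochberg adjustment over 22206 probe sets and a threshold of 0.05. Correlations used permutation of tumors, exact over 5040 orders for 7 tumors and 100000 resamples for 14, 2-sided. The fit was tested on simulated data. Alternatives changed the variance model, weights, filter, normalization, tumors, possible batches, pairing and covariates. Named genes were the 10 members, Neu1, up to 4 genes of smallest p from each list and the 5 genes most like H2-Ab1 and H2-Eb1. The members and lists were chosen with earlier results of these data known. The labels do not say whether tumors came from separate mice, so p-values measure the spread between tumors. Promoters and gene order came from RefSeq (GRCm38.p6), whose coordinates belong to that build, since the sources used here give no build for the array. Figures used matplotlib 3.10.9, pandas 2.3.3 and numpy 2.4.6 in Python 3.11.15.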

Additional observations from a re-analysis of the deposited data

Results flagged for a closer look

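Csf1r in PE tumor 2, at 7.70, was far below the other PE tumors. Chance marks about 1 in 20 groups in this way, and 1 of 20 measures checked in the PE tumors was marked.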

How the results depend on the processing

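The H2-Eb1 difference, 2.74, lay between 2.52 and 3.06 under all alternatives, 2.59 and 2.88 when a tumor was left out, and its difference to the I-A genes, 2.50, between 2.42 and 2.57 when a tumor was left out. No other member passed an adjusted p of 0.05 (0 without any 1 tumor) except with the replicate number as a block over tumors 1 to 7 of each genotype, where 2 passed, H2-DMb1 at 0.86 and H2-DMb2 at 0.95. The same tumors without the block gave 0. Same-numbered tumors correlated between -0.31 and 0.13, and the labels do not say whether the numbers pair them.

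Directions that changed belonged to differences near 0. H2-Aa (-0.02) was 0.13 with title ranges as a block, 0.29 within numbers 28 to 35, 0.29 with the replicate block, 0.29 over those tumors without it, and -0.20 to 0.12 when a tumor was left out. H2-DMa (0.16) was -0.04 with Ptprc and -0.02 with the Y-linked mean as covariate, and -0.02 to 0.36 when a tumor was left out. H2-Ob (0.06) was -0.0038 with array weights, -0.05 within numbers 18 to 23, -0.00082 with Ptprc and -0.02 with the Y-linked mean. Ciita (-0.15) was 0.14 with title ranges as a block, 0.35 within numbers 28 to 35, and -0.30 to 0.01 when a tumor was left out. The cause was not tested.

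Of the 18 pairs with H2-Eb1, 14 passed, 8 without the 2 farthest tumors, 11 with similar tumors averaged, and 11 to 15 when a tumor was left out. The PE count of 6 was 3 without PE tumor 3, 4 or 6. The pair with H2-Oa in PE tumors (0.01) was -0.47 without the 2 farthest tumors, -0.02 with arrays centred on the median and -0.27 to 0.28 when a tumor was left out. Of the 28 marker pairs 13 passed, 0 without the 2 farthest tumors, and 7 of 20 with the 5 planned markers, a smaller family. In PE tumors H2-Ab1 with Csf1r (-0.11) was 0.02 with similar tumors averaged, H2-Ab1 with Flt3 (0.02) was -0.11 by rank and -0.13 with similar tumors averaged, H2-Ab1 with Cd79a (-0.27) was 0.08 without the 2 farthest tumors, and H2-Eb1 with Csf1r (0.25) was -0.04 by rank and -0.84 without them. Each gene had 1 probe set, so probe sets could not be averaged, and the Cd74 covariate was not run. The number of arrays and, for dim genes, the background signal limit these values.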
